A study of Mus musculus with 6 samples.

Results

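The neuromuscular junction acetylcholine receptor genes are the muscle nicotinic receptor subunits Chrna1, Chrnb1, Chrnd, Chrng and Chrne, the clustering genes Lrp4, Musk, Dok7 and Rapsn, and the esterase Ache. They were found by an exact match of their symbols in the transcript names of the deposited files. All 10 genes were present, out of 52550 genes, with 47 of the 131100 transcripts. The study sequenced RNA from 6 samples of mouse medulloblastoma, a tumour of the cerebellum, in 2 genotypes. Eed belongs to the core of Polycomb repressive complex 2, which methylates histone H3 at silenced genes, and the comparison asks how expression differs between the genotypes.

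The groups were 3 samples labelled wild type for Eed and 3 labelled Eed mutant. The sources used here do not give the mutant allele, the promoter or Cre that produces it, the tumour model, the strain, the ages or any allele that both groups share. Nothing in the labels says that the 3 samples of a group came from separate animals, so every p-value rests on the spread among these 6 libraries, which may be technical. These were bulk samples, in which fewer cells of a type and less RNA per cell cannot be told apart. Each library is called a tumour below for short, without knowledge that the tumours were separate. Values per tumour are listed in the order of the replicate numbers, 1 to 3, with the wild-type group first.

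At the motor endplate, acetylcholine released by the nerve opens a five-part receptor in the muscle membrane. In fetal muscle the receptor holds the gamma subunit, encoded by Chrng, and after innervation the epsilon subunit, encoded by Chrne, takes its place. The receptors are gathered under the nerve by agrin, which acts through Lrp4 and the kinase MuSK with its adaptor Dok7 and the scaffold rapsyn, and acetylcholinesterase ends the signal. The receptor and kinase genes are transcribed in muscle under myogenic factors, whereas Lrp4 and Ache are also expressed by neurons.

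The libraries held between 26186236 and 26425111 estimated counts each, and 3 counts, the floor used for genes with no reads, were worth 0.113 to 0.115 CPM (library-scaled counts, with TMM factors). Eed itself measured 43.8, 30.1 and 35.6 CPM in the wild-type tumours and 32.6, 36.8 and 30.7 CPM in the mutant tumours. Its groups overlapped, so its level did not separate the labels, and RNA level alone does not check an allele that is still transcribed. edgeR's quasi-likelihood test, with Benjamini-Hochberg adjustment over 19145 genes, called 0 genes at an adjusted p under 0.05 (0.0%), although 3459 genes had an unadjusted p under 0.05. DESeq2, run as another test, called 962 genes. No junction gene was called by edgeR.

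Chrng, the fetal gamma subunit, was nearly absent from the wild-type tumours and present in each mutant tumour. Its level was 0, 0.0757 and 0.190 CPM in the wild-type tumours, which came from 0, 2 and 5 counts. The mutant replicates held 0.653, 0.884 and 2.87 CPM, from 17, 23 and 76 counts. All 3 mutant tumours were above all 3 wild-type tumours, and mutant replicate 3 alone held most of the mutant counts. The group means were 0.0886 ± 0.0957 and 1.47 ± 1.22 CPM (SD, n = 3 each). The fitted log2 fold change was 3.99 with a standard error of 0.92 (edgeR, adjusted p = 0.149). The gene passed the filter on low counts only through the mutant libraries. Pooled counts of 7 and 116 gave a ratio of 16.5 between the groups, with a 95% counting interval of 7.76 to 42.0, and such intervals cover counting error only. Without mutant replicate 3 the ratio was 8.55 and the log2 fold change 3.05. Without wild-type replicate 3 they were 38.6 and 5.12.

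Chrne, the adult epsilon subunit, was at or under the floor of 3 counts in every tumour. It held 2, 3 and 0 counts in the wild-type tumours and 3, 1 and 2 counts in the mutant tumours. The groups overlapped and the pooled counts of 5 and 6 gave a ratio of 1.20, with a counting interval of 0.304 to 4.95. The gene was removed by the filter and was not tested by edgeR, and a difference within this interval was not detectable at this depth. The wild-type counts all fell on a retained-intron transcript, Chrne-203. The coding transcript Chrne-202 had no counts in any wild-type tumour and 2, 1 and 2 in the mutant tumours.

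**Figure D1:**
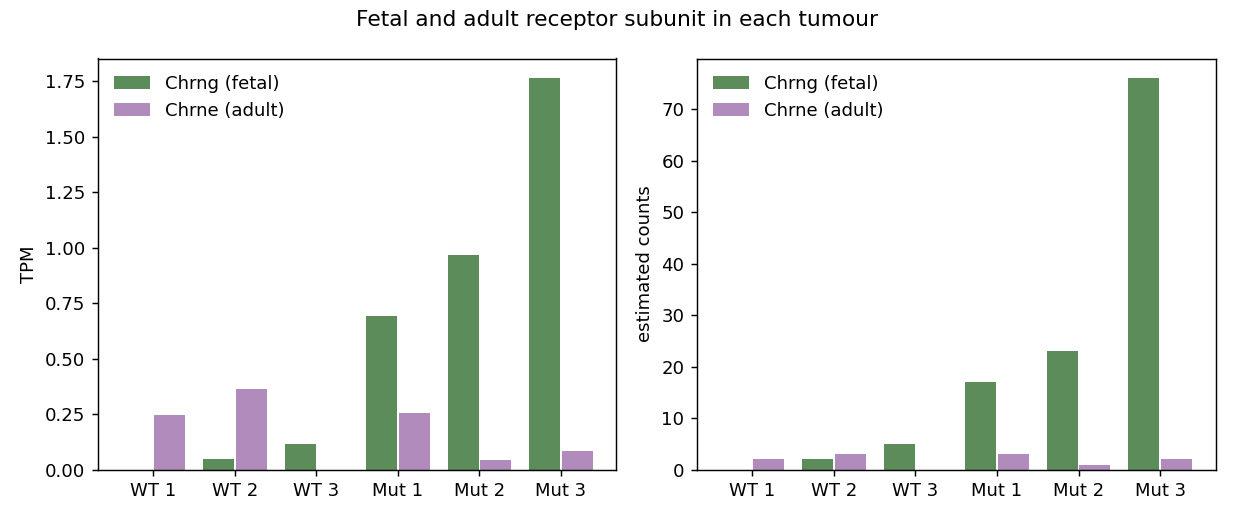
Chrng and Chrne in each of the 6 tumours, as TPM (left) and as estimated counts (right), 1 bar per library. Chrng counts were 17, 23 and 76 in the mutant tumours and at most 5 in the wild-type tumours, while Chrne stayed at 3 counts or fewer in all 6.

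The fetal share of the receptor was taken as Chrng over Chrng plus Chrne on the TPM scale, a level per length of transcript. It was 0, 11.2 and 100% in the wild-type tumours, and 73.2, 95.9 and 95.5% in the mutant tumours. The mutant tumours lay between 73.2 and 95.9%, with replicate 1 the lowest, whereas the wild-type tumours spanned the whole scale and overlapped them. The means were 37.1 ± 54.8% and 88.2 ± 13% (SD, n = 3 each), and the difference of 51.1 percentage points had p = 0.4 in a two-sided exact permutation test, where 3 against 3 samples cannot go below 0.1. The wild-type shares rested on 2, 5 and 5 counts of both genes together, and their low values came from the retained-intron transcript Chrne-203 alone. With coding transcripts only, wild-type replicate 1 held neither gene, wild-type replicates 2 and 3 were at 100%, and the mutant tumours were at 88.4, 95.2 and 95.2%. The direction was then the opposite of that for all transcripts, so a higher fetal share in the mutant tumours is not shown. By counts, the fetal share in the mutant tumours was 85.0% of 20 (95% Clopper-Pearson interval 62.1 to 96.8), 95.8% of 24 (78.9 to 99.9) and 97.4% of 78 (91.0 to 99.7). Counts pooled over the wild-type tumours gave 7 of 12, or 58.3% (27.7 to 84.8), and over the mutant tumours 116 of 122, or 95.1% (89.6 to 98.2). These intervals cover counting error only and leave out the spread among tumours. The wild-type pool includes the Chrne-203 counts, so the pooled values do not show a difference between the groups.

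Chrna1 encodes the alpha subunit, which carries most of the acetylcholine binding site. Its level was 0.925, 1.15 and 1.07 CPM in the wild-type tumours and 2.41, 1.43 and 2.82 CPM in the mutant tumours. The groups did not overlap, and the lowest mutant tumour was replicate 2. The means were 1.05 ± 0.115 and 2.22 ± 0.716 CPM (SD, n = 3 each). The log2 fold change was 1.10 with a standard error of 0.29 (edgeR, adjusted p = 0.159). DESeq2 gave an adjusted p of 0.0547, and over 16 other settings of the tests the adjusted p ran from 0.0547 to 0.488.

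Chrnb1, the beta subunit, had the highest level per length (mean TPM) of the 5 subunits in both genotypes. It measured 3.06, 2.69 and 4.33 CPM in the wild-type tumours and 4.38, 4.42 and 9.40 CPM in the mutant tumours. The groups lay apart by a narrow margin on this scale, and they overlapped on raw counts, on CPM scaled by library size and on gene TPM. The coding transcript Chrnb1-201 gave 2.08, 1.92 and 3.02 TPM against 3.37, 3.23 and 6.25 TPM, with no overlap. The log2 fold change of the gene was 0.85 with a standard error of 0.35 (edgeR, adjusted p = 0.270). Without mutant replicate 3 it was 0.39.

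Chrnd, the delta subunit, is the neighbour of Chrng, with 4586 bases between the genes. It held 0, 1.34 and 7.01 counts in the wild-type tumours and 12.1, 5 and 39.0 counts in the mutant tumours. The groups overlapped, since mutant replicate 2 was below wild-type replicate 3. On the CPM scale the means were 0.106 ± 0.141 and 0.709 ± 0.675 (SD, n = 3 each; two-sided exact permutation p = 0.2). Pooled counts gave a ratio of 6.97 (3.31 to 16.9), which was 3.06 without mutant replicate 3 and 27.8 without wild-type replicate 3. The gene did not pass the filter and has no edgeR value here.

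**Figure D2:**
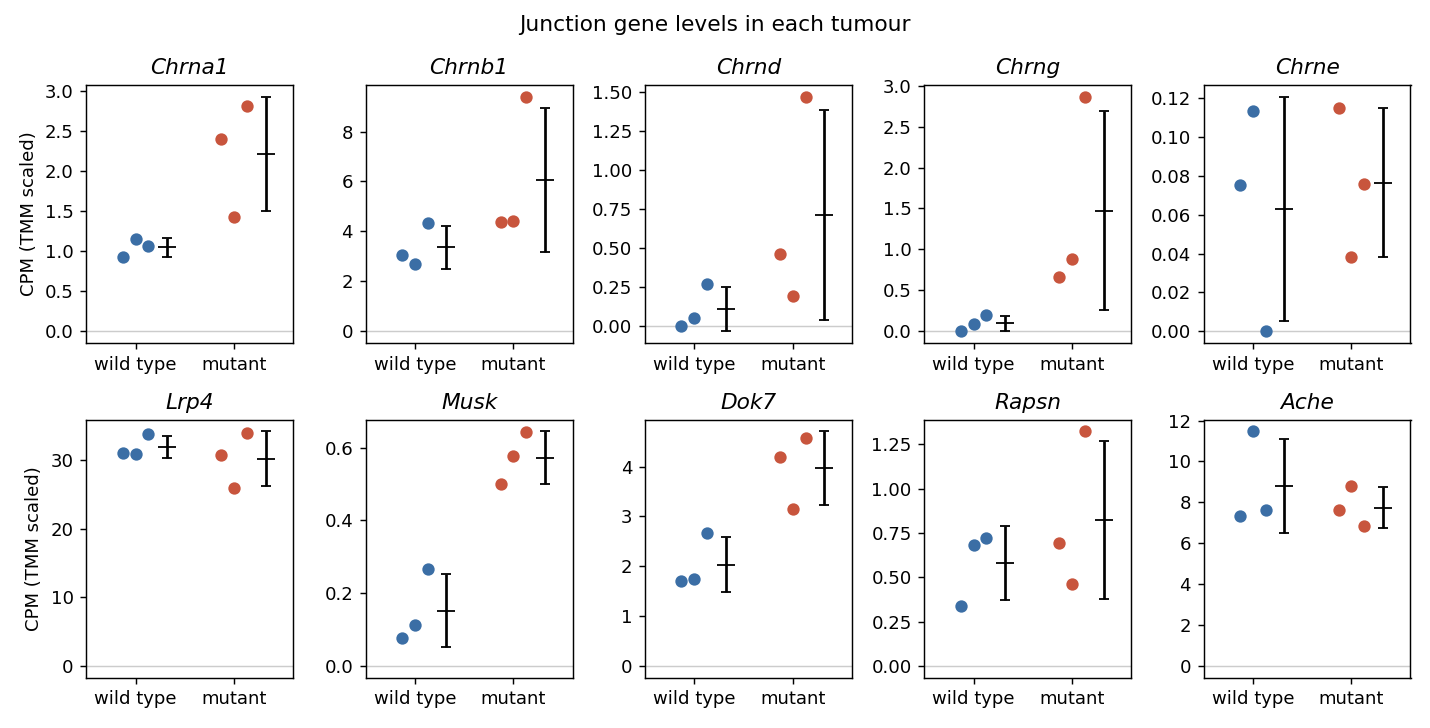
Level of each of the 10 genes in each tumour, in CPM on a linear axis that differs between panels; points are libraries, and the bar beside each group is the mean with 1 SD. Chrna1, Chrnb1, Chrng, Musk and Dok7 show mutant tumours all above wild-type tumours (Chrnb1 with TMM scaling but not by library size), and the other genes overlap.

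The contrast of fetal with adult receptor and the 3 highest edgeR fold changes of the tested genes rest on 4 genes. Stretches just upstream of their start sites are shown. They come from RefSeq on GRCm38.p6, which had an entry for 7 of the 10 genes, and hold the 250 bases before the start, read 5′ to 3′ on the gene's own strand. Capitals mark E-boxes, the binding motif of myogenic and other basic helix-loop-helix factors, spelled CANNTG, and in Chrne also CCGGAA, a core found in ETS-factor sites. CANNTG reads the same on both strands and its matches include those of CAGCTG, while CCGGAA was searched on both strands. The windows lie at chr1:87205561-87205810 on the plus strand for Chrng, chr2:73580339-73580588 on the minus strand for Chrna1, chr4:58285712-58285961 on the plus strand for Musk and chr11:70619195-70619444 on the minus strand for Chrne.
Chrng: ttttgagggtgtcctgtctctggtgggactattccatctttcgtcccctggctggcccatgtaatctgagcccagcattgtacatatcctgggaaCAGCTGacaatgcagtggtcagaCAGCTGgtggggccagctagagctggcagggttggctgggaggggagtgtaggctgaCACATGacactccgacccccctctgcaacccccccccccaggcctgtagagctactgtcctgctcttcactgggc
Chrna1: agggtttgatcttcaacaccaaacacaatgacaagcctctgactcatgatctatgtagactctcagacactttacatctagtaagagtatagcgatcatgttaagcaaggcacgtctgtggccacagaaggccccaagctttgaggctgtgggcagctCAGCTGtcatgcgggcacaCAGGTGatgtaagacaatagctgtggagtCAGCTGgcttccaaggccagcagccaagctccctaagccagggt
Musk: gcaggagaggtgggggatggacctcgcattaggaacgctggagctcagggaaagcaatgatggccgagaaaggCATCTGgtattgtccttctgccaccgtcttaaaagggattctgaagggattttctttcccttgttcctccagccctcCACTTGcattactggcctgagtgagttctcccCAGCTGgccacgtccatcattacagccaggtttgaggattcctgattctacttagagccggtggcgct
Chrne: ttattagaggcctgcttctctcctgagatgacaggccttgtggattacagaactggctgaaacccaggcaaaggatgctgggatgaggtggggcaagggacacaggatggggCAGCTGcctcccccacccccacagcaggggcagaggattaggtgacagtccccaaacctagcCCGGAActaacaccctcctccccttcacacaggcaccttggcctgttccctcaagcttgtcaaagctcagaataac

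Chrng, Chrna1 and Musk each held 3 CANNTG matches in these windows, as did Chrnb1, whose sequence is not shown. Of 32851 windows of the same length, 12.2% held at least 3 and 66.2% at least 1. CAGCTG occurred at least 2 times in 1.26% of the windows, and both Chrng and Chrna1 were among them, at positions -155 and -132 and at positions -92 and -44, counted back from -1 at the base before the start. Chrne held 1 CAGCTG at -138 and 1 CCGGAA at -76, a motif found in 12% of the windows. Ache held 1 CANNTG match and no CAGCTG, and Chrnb1 also held no CAGCTG. Dok7 held 1 CANNTG match in the window starting at 35056516, none in that starting at 35056822, and no CAGCTG in either. The GENCODE model of Chrng starts upstream of the RefSeq start, so its window lies inside the gene's annotated span. A match is a description of the letters and shows no binding.

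Lrp4, the agrin receptor, did not separate the groups. It measured 31.2, 30.9 and 33.8 CPM in the wild-type tumours and 30.8, 26 and 33.9 CPM in the mutant tumours. Its log2 fold change was -0.08 with a standard error of 0.11 (edgeR, adjusted p = 0.728), and 0.02 without mutant replicate 2. Lrp4 is expressed in the brain outside any muscle context, and agrin (Agrn), its ligand, was at 160 to 179 CPM in the wild-type tumours and 170 to 248 CPM in the mutant tumours.

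Musk encodes the receptor tyrosine kinase that agrin activates through Lrp4. Its counts were 2, 3 and 7 in the wild-type tumours and 13, 15 and 17 in the mutant tumours. In CPM these were 0.0755, 0.114 and 0.266 against 0.499, 0.576 and 0.643. The mutant tumours lay close together, above every wild-type tumour, with means of 0.573 ± 0.0719 against 0.152 ± 0.101 CPM (SD, n = 3 each). A log2 fold change of 1.89 was fitted, with a standard error of 0.45 (edgeR, adjusted p = 0.151). Musk passed the filter on low counts only through the mutant libraries. Its ratio of pooled counts was 3.74 (1.94 to 7.76), and 5.99 without wild-type replicate 3.

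Dok7, the adaptor that binds and activates MuSK, had the smallest DESeq2 adjusted p of the junction genes given one. DESeq2 gave none to Chrng, Musk, Rapsn, Chrnd or Chrne. It measured 1.70, 1.74 and 2.66 CPM in the wild-type tumours and 4.19, 3.15 and 4.57 CPM in the mutant tumours. Every mutant tumour was above every wild-type tumour, and replicates 3 were the highest of their groups. The means were 2.03 ± 0.544 and 3.97 ± 0.736 CPM (SD, n = 3 each). In edgeR its log2 fold change was 0.96 with a standard error of 0.25 (edgeR, adjusted p = 0.155). DESeq2 called Dok7 higher in the mutant tumours (adjusted p = 0.0251), as it did 3.38% of the 15782 genes to which it gave an adjusted p. Over the 16 other settings the adjusted p ran from 0.0251 to 0.481. With 1 library left out, DESeq2 kept the call without wild-type replicate 3 (adjusted p = 0.00461) and without mutant replicate 2 (0.0239). DESeq2 lost it without wild-type replicate 1 or 2 (adjusted p = 0.119 and 0.154) and without mutant replicate 1 or 3 (0.277 and 0.206).

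Rapsn encodes rapsyn, which anchors the receptors to the cytoskeleton. Its levels were 0.340, 0.681 and 0.722 CPM in the wild-type tumours and 0.691, 0.461 and 1.32 CPM in the mutant tumours. The groups overlapped, with only mutant replicate 3 above all wild-type tumours. Its log2 fold change was 0.50 with a standard error of 0.47 (edgeR, adjusted p = 0.592), and -0.01 without mutant replicate 3. The annotated span of Rapsn, introns included, shares 1638 bases with that of the antisense transcript Gm13778, which measured 0.605 to 1.02 CPM. Overlap of exons was not measured. Reads of any shared exon cannot be assigned without strand, so the value of Rapsn is uncertain.

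Ache, the enzyme that breaks down acetylcholine at the endplate and in the brain, showed no separation. It measured 7.35, 11.5 and 7.65 CPM in the wild-type tumours and 7.60, 8.79 and 6.84 CPM in the mutant tumours. The highest tumour was wild-type replicate 2. The log2 fold change was -0.19 with a standard error of 0.21 (edgeR, adjusted p = 0.658), and 0.05 without that library. The collagen tail that anchors the enzyme at the endplate, encoded by Colq, was at 0.302, 0.927 and 1.03 CPM in the wild-type tumours and 0.768, 0.845 and 1.74 CPM in the mutant tumours, which overlapped (log2 fold change 0.58, edgeR adjusted p = 0.564).

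Across these genes, 8 of 10 were tested, and Chrna1, Chrnb1, Chrng, Musk and Dok7 had mutant tumours all above wild-type tumours by TMM-scaled CPM, while Chrnb1 overlapped by raw counts, library-size CPM and gene TPM. That held for 13.1% of all tested genes, and 11.9% lay wholly below. The same 5 had an unadjusted edgeR p under 0.05 with a higher mutant level, against 9.29% of all tested genes. Chrng and Musk entered the test because of their mutant levels, so these counts describe the tested genes and support nothing about the set. The median log2 fold change of all tested genes was -0.01.

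**Figure D3:**
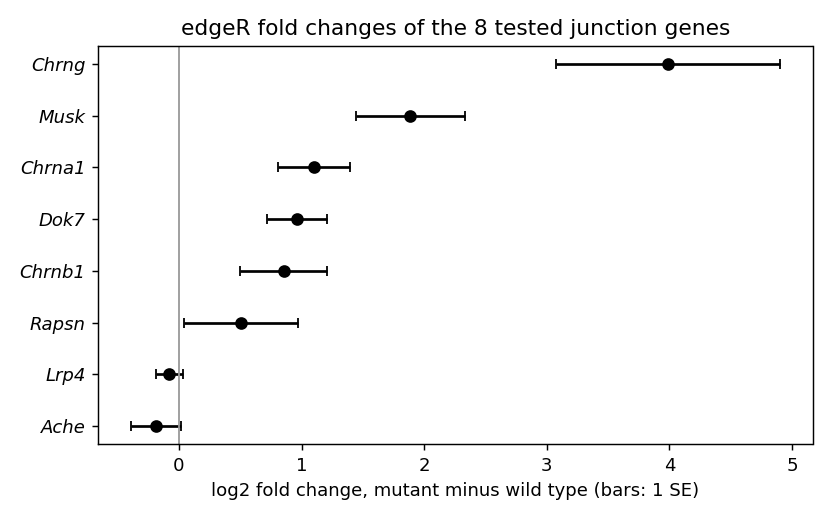
edgeR log2 fold change, mutant minus wild type, of the 8 tested genes; points are estimates and bars 1 standard error. Chrng is at 3.99 and Musk at 1.89, Chrna1, Dok7 and Chrnb1 lie between 0.85 and 1.10, and the bars of Lrp4 and Ache reach 0.

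The genes were ordered by their level per length, the mean TPM of a group. In the wild-type tumours the mean TPM was 10.2 for Ache, 6.69 for Lrp4, 4.15 for Chrnb1, 1.26 for Dok7, 0.722 for Rapsn and 0.422 for Chrna1. Chrne, Musk, Chrnd and Chrng followed at 0.204 to 0.0537 TPM and overlapped from each to the next. The place of Chrne rested on the retained-intron transcript Chrne-203, since its coding transcripts were at 0 TPM in all 3 wild-type tumours. Lrp4 lay above Chrnb1, Chrnb1 above Dok7 and Chrna1 above Chrne with no overlap over the 3 tumours, and the other neighbours overlapped. In the mutant tumours Chrnb1 came first at 7.13 TPM, then Ache at 6.38, Lrp4 at 6.10, Dok7 at 2.34 and Chrng at 1.14. Rapsn at 1.13, Chrna1 at 0.869, Chrnd at 0.388, Musk at 0.328 and Chrne at 0.126 TPM completed the order. Only Lrp4 and Dok7 were neighbours without overlap there. The first place of Chrnb1 rested on mutant replicate 3, at 13.3 TPM against 3.57 and 4.50 TPM in replicates 1 and 2. Without that library its mean was 4.04 TPM, below Ache at 6.82 and Lrp4 at 5.69 TPM. Its place also rested on noncoding transcripts. With coding transcripts only, Chrnb1 was below Lrp4 in each mutant tumour, at 3.37, 3.23 and 6.25 against 5.72, 4.90 and 6.45 TPM. Chrng and Rapsn overlapped, and Rapsn came before Chrng without mutant replicate 2.

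The transcripts behind the gene sums differed in how much coding sequence they carried. Chrna1, on chromosome 2 from 73563215 to 73580338 of GRCm38, has 1 annotated transcript. Chrng, on chromosome 1 from 87204657 to 87212694, drew 12.5, 16.8 and 73.5 of its counts in the mutant tumours from the full coding transcript Chrng-201, and a retained-intron transcript took 8.69, 14.9 and 3.35% of its counts there. Chrnd lies beside it from 87190607 to 87200070, and all its counts of 1 or more fell on Chrnd-201. Musk, on chromosome 4 from 58285960 to 58374303, was read mainly from the coding transcript Musk-205 in 5 libraries and from Musk-207 in wild-type replicate 1. Dok7, on chromosome 5 from 35056766 to 35087839, was mostly Dok7-203. The levels of the 5 genes with non-overlapping groups also lay apart when only coding transcripts were summed.

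Ache, on chromosome 5 from 137287519 to 137294466, drew a large share from the retained-intron transcript Ache-208. Noncoding transcripts took 45.9, 35.6 and 38.5% of its counts in the wild-type tumours and 41.1, 49.4 and 36.8% in the mutant tumours. Its most abundant transcript, Ache-201, held 31.9 ± 6.36% of the gene's TPM in wild-type and 45.9 ± 7.72% in mutant tumours (SD, n = 3 each). The difference of 14.0 percentage points had p = 0.2 in a two-sided exact permutation test, adjusted p = 0.4 over the 4 genes whose leading transcript could vary and had enough counts. By estimated counts the same difference was 3.93 percentage points. Lrp4, on chromosome 2 from 91457511 to 91513779, had 90.6 to 93.9% of its TPM in the coding transcript Lrp4-201 in every library. Chrnb1 and Chrne lie on chromosome 11, from 69784036 to 69795943 and from 70614883 to 70619216, and Rapsn on chromosome 2 from 91035620 to 91045729. Chrne shares 1043 bases with an antisense gene, 4930544D05Rik, which measured at most 0.0379 CPM.

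Replicate 3 of each group stood out for these genes. Of the 10 genes, 8 had their highest level of all libraries in mutant replicate 3, the exceptions being Ache and Chrne. Among the wild-type tumours, 7 of 10 were highest in replicate 3. Both libraries carry the same code in their deposited file names, whose meaning the sources used here do not give. With the code as a term in the edgeR fit, the log2 fold change of Chrng was 3.67 (adjusted p = 0.154).

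**Figure D4:**
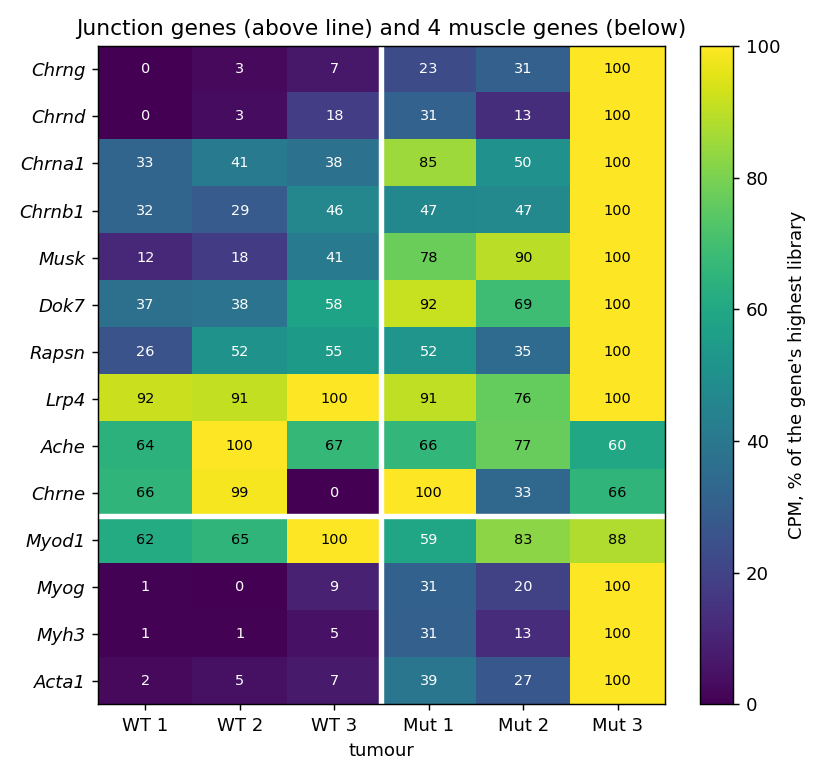
Level of each junction gene, and of 4 muscle genes below the line, in each tumour as a percent of that gene's highest library. Chrng, Chrnd, Chrna1, Chrnb1, Musk, Dok7, Rapsn and Lrp4 reach 100% in mutant replicate 3, as do Myog, Myh3 and Acta1, but not Myod1.

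Genes of skeletal muscle fibres were also at higher levels in the mutant libraries. Myh3, the embryonic myosin heavy chain, measured 0.755, 0.757 and 5.78 CPM in the wild-type tumours and 36.8, 15.2 and 120.0 CPM in the mutant tumours. Acta1, skeletal actin, measured 0.793, 1.48 and 2.36 against 12.5, 8.61 and 31.9 CPM. For both genes replicate 3 was the highest of each group and the groups did not overlap. The summed level of the 25 fibre markers ran from 32.6 to 65.9 CPM in wild-type and from 124 to 510 CPM in mutant tumours. Of the 22 tested, 0 were called by edgeR and 20 had an unadjusted edgeR p under 0.05 with a higher mutant level (9.29% of all tested genes). The groups lay apart for 19 of the 22 (13.1% of all tested genes), DESeq2 called 18 higher (3.38% of the genes with an adjusted p), and the median log2 fold change was 3.18. Some of these markers entered the test because of their mutant levels, among them Mb, at 0, 0.265 and 0.342 CPM in the wild-type tumours. The counts of markers therefore describe the tested genes and support nothing about the set. The adult fast myosins Myh1, Myh2 and Myh4 reached at most 0.606 CPM in any tumour. The part of muscle-fibre RNA in the values of the junction genes was not tested.

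Among the myogenic regulators, Myod1 and Myog differed in pattern. Myod1, a determination factor, measured 50.3, 53.3 and 81.5 CPM in the wild-type tumours and 48.0, 67.5 and 71.9 CPM in the mutant tumours (log2 fold change 0.02, edgeR adjusted p = 0.975). Myog, a differentiation factor that binds E-boxes, measured 0.189, 0.0379 and 2.36 against 7.95, 5.07 and 25.7 CPM (log2 fold change 3.90, edgeR adjusted p = 0.173). Myod1 overlapped between the groups and Myog did not. Pax3 measured 2.27, 2.62 and 2.62 against 12.9, 6.58 and 13.4 CPM, while Myf5 had 0 counts in every library and Myf6 and Pax7 at most 3. Of the 10 regulators 7 were tested, 0 were called by edgeR, 4 did not overlap and were higher in the mutant tumours (13.1% of all tested genes), 0 lay wholly lower (11.9%), and the median log2 fold change was 0.46. Myog entered the test because of its mutant levels, so these counts describe the tested genes only.

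The profile most like that of Chrng was sought among 15925 tested genes with a mean of at least 1 CPM, by Pearson's r of log2 CPM over the 6 libraries. The 10 nearest, in order, were Podxl, Mybpc1, Creb5, 4930447C04Rik, Acta1, Tenm3, Mybph, Mylk4, Rassf9 and Ckm, with r from 0.995 to 0.981. Mybpc1, Acta1, Mybph, Mylk4 and Ckm encode proteins of the muscle contractile apparatus or its energy supply. Musk had r = 0.956, below 63 of those genes, and Dok7 0.932, below 142. Chrnb1 had r = 0.896, Chrna1 0.885 and Rapsn 0.700, while Lrp4 had -0.03 and Ache -0.37. The 6 points of each correlation share the same libraries and the same split into genotypes, so r is a description only.

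The wider junction genes were counted by list, beside the 13.1% of all tested genes that lay wholly higher in the mutant tumours and the 11.9% that lay wholly lower. Of the 10 agrin and MuSK signalling partners, all tested, 0 were called by edgeR, none had groups apart, and the median log2 fold change was 0.04. Agrn had the smallest p of that list (log2 fold change 0.37, edgeR adjusted p = 0.236), and Apc and Macf1, the members with the highest CPM, were at -0.10 and -0.03. Of 14 genes of the synaptic basal lamina and dystroglycan complex, 0 were called by edgeR, 2 lay wholly higher and 0 wholly lower, with a median of 0.22. The share of 2 in 14 was near the 13.1% of all tested genes that lay wholly higher. Those 2 were Sntb1, a syntrophin (log2 fold change 0.72, edgeR adjusted p = 0.206), and Nid2, a nidogen (0.56, edgeR adjusted p = 0.227). Lama5, a laminin chain with the highest CPM of the list, spread from 70.1 to 256 CPM within the wild-type tumours.

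Neuregulin signalling and ETS factors drive synaptic transcription in muscle nuclei under the nerve. Of 9 such genes, all tested, 0 were called by edgeR, 3 lay wholly higher (13.1% of all tested genes), 0 lay wholly lower (11.9%), and the median log2 fold change was 0.21. Erbb2, a neuregulin co-receptor, measured 5.17, 3.52 and 5.67 CPM in the wild-type tumours and 8.14, 6.26 and 9.75 CPM in the mutant tumours (log2 fold change 0.75, edgeR adjusted p = 0.195). Etv4 and Gabpa were the other members apart, at 0.32 and 0.20. Another list held 3 genes tied to the control of receptor genes by activity. In it, Hdac4, a deacetylase, measured 61.5, 62.2 and 65.6 against 84.2, 81.3 and 82.8 CPM. Its groups were tight and apart (log2 fold change 0.39, edgeR adjusted p = 0.104, DESeq2 adjusted p = 7.36e-05, 7.36e-05 to 0.434 over 16 other settings). Hdac9 was at -0.26 and Dach2 at 0.03, and edgeR called 0 of the 3.

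The nerve side of the synapse was sparse. Chat, which makes acetylcholine, was at 0 CPM in 4 libraries and reached 0.331 CPM in wild-type replicate 1. The vesicle transporter Slc18a3 measured 1.44, 0.0379 and 0.0760 CPM in the wild-type tumours and at most 0.151 CPM in the mutant ones. The choline transporter Slc5a7 had the highest CPM of the list, at 23.6, 10.3 and 9.16 against 15.5, 19.2 and 24.3 CPM, with overlap. Of the 7 genes of acetylcholine synthesis, transport and breakdown 4 were tested, 0 were called by edgeR, and the median log2 fold change was 0.56. Of the 4, 1 lay wholly higher (13.1% of all tested genes) and 0 wholly lower (11.9%). The higher gene was Slc10a4 (log2 fold change 1.58, edgeR adjusted p = 0.161), which entered the test because of its mutant levels. Bche, a second cholinesterase, was at 0.54.

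The neuronal nicotinic subunits belong to the same gene family and form receptors between neurons. Of the 11, 7 were tested, 0 were called by edgeR, and the median log2 fold change was -0.30. Among the 7, 0 lay wholly higher (13.1% of all tested genes) and 1 wholly lower (11.9%), Chrna7 (log2 fold change -0.37). Chrna3 measured 86.2, 85.1 and 103 CPM in the wild-type tumours and 36.9, 97.7 and 36.6 CPM in the mutant tumours. Mutant replicate 2 was at the wild-type level and the other 2 mutant tumours were below all wild-type tumours. Chrnb2 was at 68.1, 87.9 and 71.7 against 57.8, 70.1 and 56.5 CPM (log2 fold change -0.30, edgeR adjusted p = 0.268), and Chrna9 had 0 counts in every library. The difference between the muscle and neuronal subunits was not tested.

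**Figure D5:**
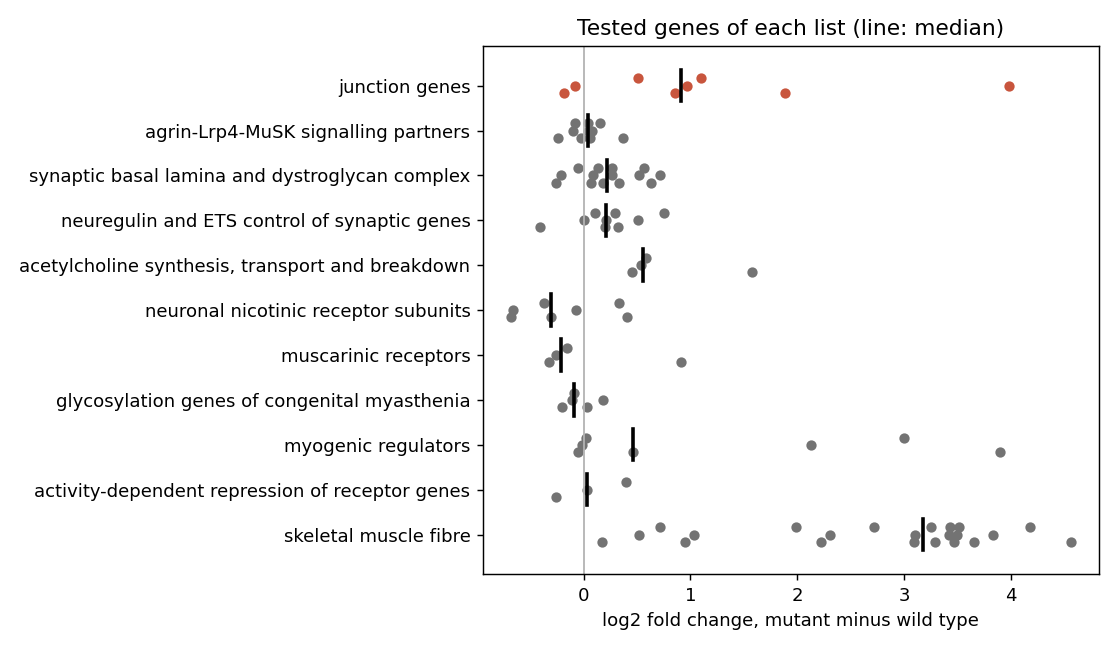
edgeR log2 fold change, mutant minus wild type, of each tested gene of the junction genes, 9 related lists and the skeletal muscle fibre markers; points are genes and the vertical line is the median of the list. The fibre markers have a median of 3.18, and the 9 related lists lie between -0.30 and 0.56.

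Of the 5 muscarinic receptors, 4 were tested, 0 were called by edgeR, and the median log2 fold change was -0.21. Chrm4 alone lay wholly higher (log2 fold change 0.91, edgeR adjusted p = 0.254), beside 13.1% of all tested genes. Wholly lower were 0, beside 11.9%. Of the 5 glycosylation genes mutated in congenital myasthenia, 0 were called by edgeR, and the median was -0.09. Among them, 1 lay wholly higher (13.1% of all tested genes) and 2 wholly lower (11.9%). Dpagt1 was at 0.18 and Alg2 at -0.21.

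Markers of the other cells that a tumour piece could hold were summed for comparison. The granule neuron progenitor and tumour markers, among them Zic1 and Ptch1, were at 4658 to 4897 CPM in wild-type and 4567 to 4928 CPM in mutant tumours, which overlapped. The motor neuron markers summed to 21.9 to 35.6 CPM and 35.3 to 50.2 CPM. Mnx1, a defining marker, had at most 3 counts in any library. Of the 4 tested, 1 lay wholly higher (13.1% of all tested genes), Isl1 (log2 fold change 1.15), and 0 wholly lower (11.9%). Lhx3 was at -1.19, with overlap. The Schwann cell markers summed to 86.5 to 110 and 111 to 153 CPM. S100b made up much of that sum (log2 fold change 0.70). Among the 6 tested markers, 0 lay wholly higher (13.1% of all tested genes) and 2 wholly lower (11.9%), Cdh19 (-0.89) and Sox10 (-0.47). Those of smooth muscle and pericytes summed to 177 to 206 and 229 to 275 CPM, mostly from Rgs5, at 108.5 to 137.6 and 158 to 180 CPM. Of the 8, all tested, 3 lay wholly higher (13.1% of all tested genes) and 1 wholly lower (11.9%). The 3 include Des, which was also counted among the fibre markers. The oligodendrocyte markers were at 720 to 1576 CPM in wild-type and 543 to 627 CPM in mutant tumours, with 6 of 8 wholly lower (11.9% of all tested genes). Fibroblast and meningeal markers summed to 509 to 545 and 387 to 461 CPM. Most of that sum was Pdgfra, at 309, 373 and 361 against 243, 357 and 244 CPM, with overlap. Of the 6 markers, all tested, 1 lay wholly lower (11.9% of all tested genes), Dcn, and 0 wholly higher (13.1%). The adult fibre markers summed to 47.7 to 96.7 and 49.0 to 67.9 CPM, mostly from Pvalb, which cerebellar neurons also express. The part of these cell types in the values of the junction genes was not tested.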

How the data were processed

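The authors deposited 1 kallisto table per tumour, which holds estimated counts, TPM and effective lengths per transcript, per the file headers. The tool (kallisto 0.43.1) and the build (GRCm38, mm10) are named in the submitters' processing notes. The sources used here do not give the annotation release, strand, read length or RNA selection. The deposited expected counts and the authors' TPM were summed per gene. Effective length exceeded length for 14175 of 131100 transcripts, 13 of them of the junction genes, so TPM of short transcripts is less certain.

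Summed counts were rounded and fitted with edgeR 4.0.16 in R 4.3.3 (TMM, default filter, quasi-likelihood test, genotype only). DESeq2 1.42.0 and limma 3.58.1 were alternatives, beside other scalings, no filter, a replicate block, the file code as a term and each library left out. DESeq2 and pooled ratios with a library left out were added after seeing the data. The fit was tested on simulated data. Likeness to Chrng used a prior count of 2. All identifiers of the 10 genes matched GENCODE M21. Shares of transcripts needed at least 10 counts in every library.

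The members and lists were chosen with earlier results of these data known. Named genes were the members, Eed, Agrn, Colq, Myod1, Myog, defining markers at 0, the 2 of highest CPM and up to 2 of the smallest p in each list, and the 10 most like Chrng. Some genes the rule names are not reported here, and Etv4, Gabpa, Chrna7, Dach2, Pax3, Myh1, Myh2, Myh4, Slc18a3, Chat and other list members were named after their values were seen. Same-numbered replicates had correlated deviations of 0.23, 0.06 and -0.14, and the labels give no pairing, so numbers were not used as pairs.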

Additional observations from a re-analysis of the deposited data

How the results depend on the processing

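Of 178 values recomputed under alternatives, 166 kept their direction and side of the threshold. That tally left out the fetal share from coding transcripts only, which turned direction. It also left out the DESeq2 fits with 1 library left out, which changed calls. The count of genes called by edgeR, 0, became 3 with no filter on low counts, 273 with a replicate block and 0 to 9 with 1 library left out, where 4 were called without wild-type replicate 2 and 9 without mutant replicate 2. It was 962 with DESeq2, 1 with limma-voom and 1 with limma-trend on log2(TPM + 0.1). The replicate block gave Chrng a log2 fold change of 4.02 (edgeR adjusted p = 0.0313, within 0.0313 to 0.434 over its 14 alternatives) and changed no other call among the junction genes. The labels do not say whether the numbers pair samples, and correlated deviations of 0.23, 0.06 and -0.14 cannot decide it. DESeq2 called Dok7 at 0.96. With 1 library left out, DESeq2 also called Chrna1 without mutant replicate 2 (adjusted p = 0.0109) and Chrng without mutant replicate 1 or 2 (0.00412 and 0.00477). DESeq2 gave no adjusted p to Chrng, Musk and Rapsn. Signs reversed in single leave-one-out fits. The log2 fold change of Rapsn was -0.012 without mutant replicate 3 (range -0.012 to 0.79), that of Lrp4 0.016 without mutant replicate 2 (-0.17 to 0.016) and that of Ache 0.046 without wild-type replicate 2 (-0.30 to 0.046). The cause of these differences was not tested. The Ache-201 share differed by 3.93 percentage points by counts and 14.0 by TPM. On log2(TPM + 1), which understates low genes, Chrng was at 0.99. With coding transcripts only, the fetal share turned direction, at a mean of 100% over wild-type replicates 2 and 3 (replicate 1 held neither gene) and 93.0% in the mutant tumours. With all transcripts it differed between groups by 32.6 to 82.6 percentage points with 1 library left out. Depth limits Chrne, Chrnd, Chrng and Musk, each at fewer than 8 counts in every wild-type tumour.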
